A study of Mus musculus with 4 samples.

Results

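The lymphocyte genes described here are 34 genes that mark T cells, natural killer (NK) cells and B cells, chosen by symbol from a list of known lineage genes, out of 39179 genes in the deposited table of normalized counts. Each symbol had 1 row. They were measured in epididymal white adipose tissue, a visceral fat depot of male mice that lies against the epididymis, in 2 Nck2 KO libraries (genotype labelled Nck2 mutant, Nck2-/- in the design text) and 2 WT libraries (Nck2+/+). All 4 came from mice of a mixed genetic background. Nck2 encodes an adaptor that links activated receptors to the actin cytoskeleton. The age of the mice, the nature of the mutant allele and whether each library is a separate animal are not stated in the labels, so p-values measure the spread between these libraries, which may be technical. The RNA was read by poly(A)-selected sequencing, with 31831904 to 37980391 reads assigned to genes per library. The comparison asks how gene expression in the depot differs by Nck2 genotype.

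T cells recognise antigen through a receptor whose CD3 and zeta chains pass the signal to the kinases Lck and Zap70. NK cells and cytotoxic T cells kill target cells by releasing perforin and granzymes. B cells carry an antigen receptor that signals through Cd79a and Cd79b. The visceral fat of mice is known for a resident population of Foxp3-positive regulatory T cells, and for innate lymphoid cells that make type 2 cytokines.

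Before the members, the libraries themselves differed in content. Normalized counts are read counts scaled for library size by a factor, and values are given for replicate 1 and then replicate 2 of each group. Nck2 itself was at 1076 and 947 normalized counts in KO and at 1279 and 1667 in WT, with a limma adjusted p of 0.0509. The 8 epididymis and male tract markers summed to 129 and 116 in KO and to 407853 and 391653 in WT, and 5 of the 8 were at 0 in KO replicate 1. The 7 smooth muscle markers summed to 14182 and 16871 in KO and to 423808 and 556203 in WT. The 10 mature adipocyte markers, headed by Fabp4, were abundant in all 4 libraries, with sums of 1186620 and 1308900 in KO and 489193 and 338401 in WT. Macrophage markers summed to 65705 and 60662 in KO and to 30404 and 29643 in WT. Genotype and this difference in tissue content cannot be told apart in these 4 libraries, and their part in the results below was not tested. In RNA from whole tissue, more cells of a type and more RNA per cell cannot be told apart either.

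Foxp3, Ctla4, Il7r, Cd2, Cd247 and Fcer2a were higher in the KO fat pads, and 0 members were lower. The greatest rise was in Foxp3, the transcription factor that defines regulatory T cells, at 97.6 ± 21.4 normalized counts in KO and 13.9 ± 5.30 in WT (SD, n = 2 each). Ctla4, the inhibitory receptor that regulatory T cells carry, came next. Of the NK and cytotoxic genes 0 of 7 passed the test, and of the B cell genes 1 of 10. Among all genes tested 22.4% were called higher and 24.4% lower. Members had a median log2 fold change of 0.11, against -0.01 for all 16710 genes tested, and for the 11 pan-leukocyte genes described below it was 1.09.

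The test was limma with an intensity trend on log2(normalized count + 1), over genes averaging at least 10 normalized counts, with Benjamini-Hochberg adjustment over all of them and a threshold of 0.05. The pseudocount of 1 understates the change of low genes. Of the 34 members 33 had a mean of 10 or more, and Pax5 did not. Of the 33, 6 (18.2%) were called higher, against 22.4% of all genes tested, and 0 were called lower, against 24.4%. The share of members called higher was thus close to that of the whole table. By unadjusted p under 0.05, 8 members passed, the 6 and also Cd3g and Tcf7. Both KO libraries were above both WT libraries in 13 members (39.4%), against 38.9% of all genes tested, and below them in 8 (24.2%), against 40.6%. The authors' deposited table called 5 members higher and 0 lower, against 18.8% and 21.7% of the genes with an adjusted p there, and Fcer2a was the member it did not call (adjusted p = 0.0515). The edgeR quasi-likelihood test on reads recovered from the deposited values called 6 higher and 0 lower (21% and 24.4% of all genes), and DESeq2 called 5 and 0 (21.1% and 23.5%).

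The members were scarce transcripts. Together they took 2627 and 2138 reads in KO and 1639 and 2152 in WT, which in CPM, reads scaled to a common library total, is 69.2 and 63.1 in KO and 51.5 and 63.2 in WT. The exact 95% intervals, which cover counting error only, were 66.5 to 71.9 and 60.5 to 65.8 in KO and 49 to 54 and 60.5 to 65.9 in WT. Per kilobase of exon, Nkg7, Cd2 and Gzma had the greatest mean levels over the 4 libraries, at 85, 83.4 and 79.4 normalized counts, and Pax5 the lowest at 0.848. On the same scale the leukocyte gene Ptprc was at 109.9 and the macrophage receptor Csf1r at 967.

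**Figure D1:**
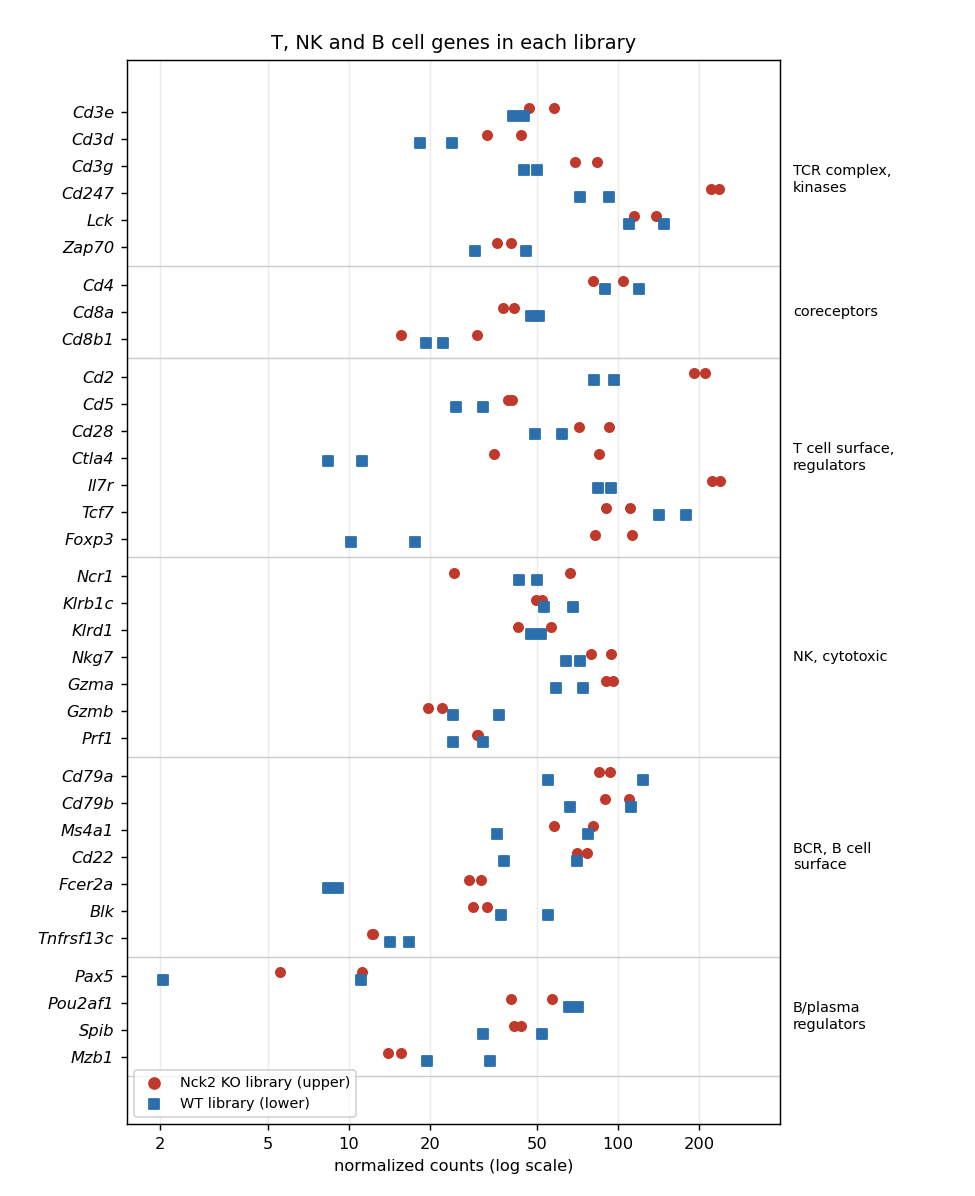
Normalized counts (log scale) of the 34 members in each library, with Nck2 KO libraries as red circles in the upper line of each gene and WT libraries as blue squares in the lower line. Foxp3, Ctla4, Il7r, Cd2, Cd247 and Fcer2a have both KO points far to the right of both WT points. Among the NK genes and the other B cell genes the groups mix in some and separate in others.

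The promoters of the called members are shown so that their sequences can be read beside the shared direction of change. RefSeq (GRCm38.p6) gave an entry for 25 of the 34 members and for 5 of the 6 called. Each line holds the 250 bases before the transcription start, 5′ to 3′ on the strand of the gene, at chrX:7579426-7579675 (plus) for the upstream start of Foxp3, chr1:60908775-60909024 (plus) for Ctla4, chr15:9529877-9530126 (minus) for Il7r, chr1:165788431-165788680 (plus) for Cd247 and chr8:3694175-3694424 (minus) for Fcer2a. Capitals mark matches on either strand to AGGAAG (an ETS-type motif), TGTGGT (a RUNX-type motif) or TTCNNNGAA (a STAT-type motif).
Foxp3: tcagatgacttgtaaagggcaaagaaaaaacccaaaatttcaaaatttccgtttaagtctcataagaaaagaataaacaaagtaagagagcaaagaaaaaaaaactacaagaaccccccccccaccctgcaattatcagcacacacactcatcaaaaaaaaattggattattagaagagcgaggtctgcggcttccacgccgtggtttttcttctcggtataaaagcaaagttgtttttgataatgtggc
Ctla4: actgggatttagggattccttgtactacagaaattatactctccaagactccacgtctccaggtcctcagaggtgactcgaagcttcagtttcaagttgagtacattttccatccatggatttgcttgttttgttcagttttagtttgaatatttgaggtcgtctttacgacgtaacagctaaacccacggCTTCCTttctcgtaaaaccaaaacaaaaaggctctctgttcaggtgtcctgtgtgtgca
Il7r: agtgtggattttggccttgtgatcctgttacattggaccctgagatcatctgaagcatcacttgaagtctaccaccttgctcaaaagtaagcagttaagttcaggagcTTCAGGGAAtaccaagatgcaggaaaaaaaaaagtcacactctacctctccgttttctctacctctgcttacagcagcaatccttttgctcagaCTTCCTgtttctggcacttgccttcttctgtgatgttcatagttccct
Cd247: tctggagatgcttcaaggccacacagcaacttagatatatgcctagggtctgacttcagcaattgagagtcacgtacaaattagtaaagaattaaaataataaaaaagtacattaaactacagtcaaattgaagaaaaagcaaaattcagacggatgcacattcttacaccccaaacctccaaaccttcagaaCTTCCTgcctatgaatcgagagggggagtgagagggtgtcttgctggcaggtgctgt
Fcer2a: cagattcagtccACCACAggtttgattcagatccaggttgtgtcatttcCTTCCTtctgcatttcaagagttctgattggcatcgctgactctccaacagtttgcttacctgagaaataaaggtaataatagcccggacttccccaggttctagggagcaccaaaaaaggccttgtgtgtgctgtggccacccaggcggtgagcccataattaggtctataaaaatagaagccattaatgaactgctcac

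The ETS-type letters occurred in 4 of these 5 windows, 48 bases before the start in Il7r, 57 in Cd247, 59 in Ctla4 and 201 in Fcer2a. Over all 32851 windows of the same length 29.5% held that motif, 14% the RUNX-type motif and 7.02% the STAT-type motif. Among the 25 members with an entry 13, 9 and 3 held them. The Foxp3 window held none of the 3 motifs. A match describes letters in the window, not a bound site.

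The T cell receptor complex was examined first. Cd247 encodes the zeta chain, which carries most of the signalling motifs of the receptor. It was at 222 and 237 normalized counts in KO and at 92.7 and 72.6 in WT. Both KO libraries were above both WT libraries, and the log2 fold change was 1.47 (SE 0.19, adjusted p = 0.0059). Cd247 lies on chromosome 1 from 165788681 to 165877277 (GRCm38, GENCODE M21). Its exons overlap those of Pou2f1 on the opposite strand over 3007 of 5329 bases, and the labels do not say whether strand entered the counting. Pou2f1 itself was at 672 and 664 in KO and at 767 and 755 in WT.

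The CD3 chains, which assemble with zeta and the antigen-binding chains, lay higher in KO without passing. Cd3g was at 69.3 and 83.7 in KO and at 44.8 and 50.2 in WT, with a log2 fold change of 0.67 (SE 0.23, adjusted p = 0.0724). Cd3d was at 32.8 and 43.5 in KO and at 18.3 and 24.2 in WT (0.81, SE 0.32, adjusted p = 0.104). Cd3e was at 46.8 and 58 in KO and at 40.8 and 44.7 in WT (0.28, SE 0.25, adjusted p = 0.391). In these 3 genes both KO libraries were above both WT libraries. The receptor kinases did not separate. Lck, the kinase that starts the signal, was at 139 and 115 in KO and at 110.0 and 149 in WT, and Zap70, which relays it, at 35.6 and 40.2 in KO and at 29.5 and 45.6 in WT. The 95% interval of the log2 fold change was -0.64 to 0.60 for Lck and -0.82 to 0.91 for Zap70. Summed over the 6 genes, the level was 545 and 577 in KO and 336 and 386 in WT.

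None of the coreceptors passed. Cd4, the coreceptor of helper and regulatory T cells that some dendritic cells also carry, was at 80.6 and 105 in KO and at 89.7 and 120.0 in WT. Cd8a, the coreceptor of cytotoxic T cells, was at 37.5 and 41.3 in KO and at 50.9 and 47.5 in WT. Both KO values of Cd8a were below both WT values, with a log2 fold change of -0.31 (95% interval -0.94 to 0.31, adjusted p = 0.319). Cd8b1, its partner chain, was at 30 and 15.6 in KO and at 19.4 and 22.3 in WT, so its groups overlapped.

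Among the T cell surface and regulatory genes 4 of 7 were called higher, against 22.4% of all genes tested. Foxp3 (chromosome X, 7573644 to 7595245) was at 82.5 and 113 in KO and at 10.2 and 17.7 in WT, and both KO libraries were above both WT libraries. Its log2 fold change was 2.75 (SE 0.38, adjusted p = 0.0069). These values rest on 88 and 101 reads in KO and 10 and 19 reads in WT. Foxp3 exons overlap those of Ccdc22 over 590 bases and of Ppp1r3f over 266 bases on the opposite strand, and those of Flicr, not analysed here, over 853 bases on the same strand, out of 4577. Ccdc22 was at 90.9 and 99.3 in KO and at 67.2 and 61.4 in WT, and Ppp1r3f at 127 and 136 in KO and at 132 and 147 in WT.

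Ctla4 (chromosome 1, 60887000 to 60915832), which competes with Cd28 for its ligands, was at 34.7 and 84.8 in KO and at 11.2 and 8.37 in WT. Both KO libraries exceeded both WT libraries, and KO replicate 2 was far above KO replicate 1. Its log2 fold change of 2.37 (SE 0.53) had an adjusted p of 0.0247, and without KO replicate 2 it was 1.74 (adjusted p = 0.0684). Cd28 itself, the costimulatory receptor, was at 92.8 and 71.4 in KO and at 62.2 and 49.3 in WT (0.55, SE 0.26, adjusted p = 0.149).

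Il7r (chromosome 15, 9505788 to 9530176), the receptor chain for the survival cytokine interleukin-7 on T cells and innate lymphoid cells, was at 224 and 239 in KO and at 84.6 and 94 in WT. It had the smallest error of all members, with a log2 fold change of 1.37 (SE 0.15, adjusted p = 0.0043). Cd2 (chromosome 3, 101275899 to 101287939), an adhesion receptor of T and NK cells, was at 211 and 192 in KO and at 81.5 and 96.8 in WT (1.17, SE 0.18, adjusted p = 0.0086). Neither gene had a KO value within the WT range.

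Cd5, an inhibitor of T cell receptor signalling, was at 40.3 and 39.1 in KO and at 31.6 and 25.1 in WT (0.48, SE 0.27, adjusted p = 0.212). Tcf7, a transcription factor of naive and memory T cells, lay the other way, at 111 and 90.4 in KO and at 179 and 142 in WT. Its log2 fold change was -0.67 (SE 0.21) with an adjusted p of 0.0608, and its 95% interval of -1.24 to -0.10 was below 0. Foxp3 and Tcf7, the transcription factors of this subset, thus had estimates of opposite sign.

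**Figure D2:**
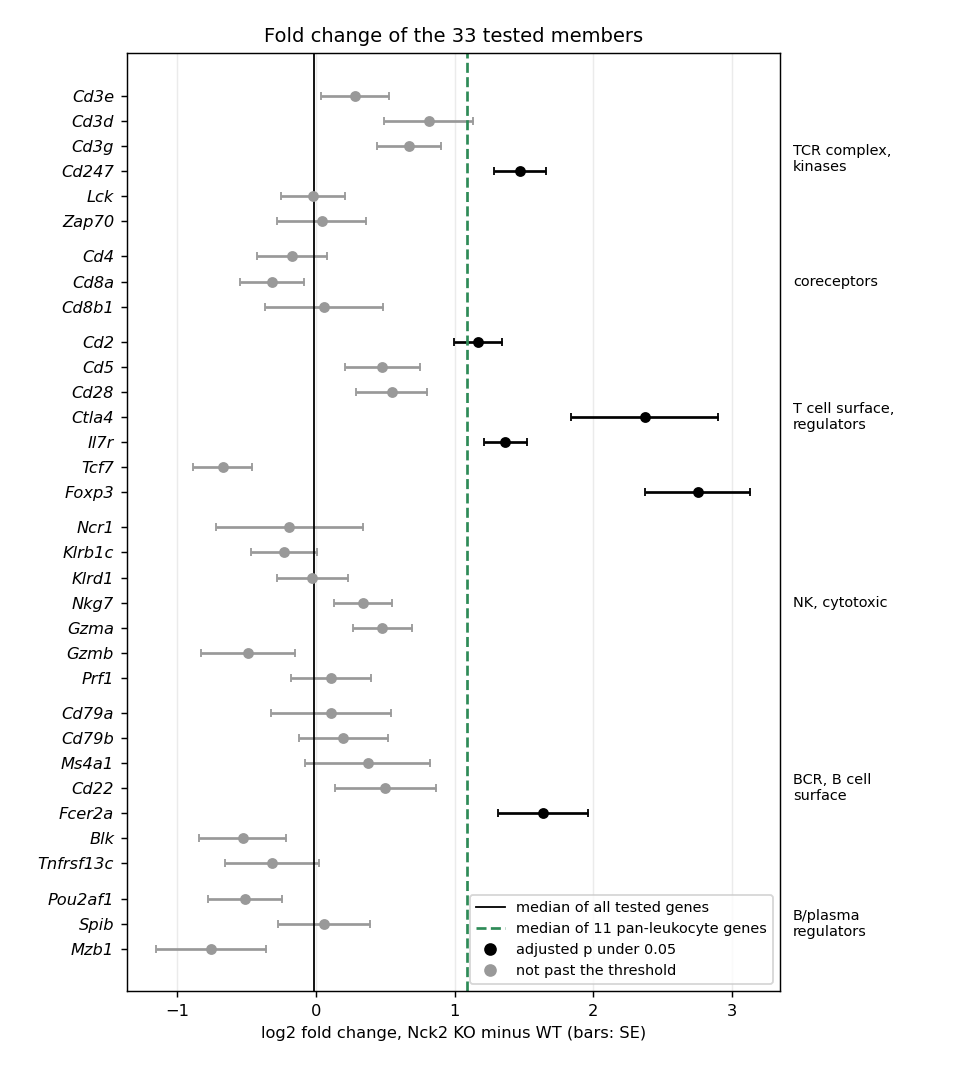
Log2 fold change (Nck2 KO minus WT) with its standard error for the 33 tested members, grouped by role, where black points passed an adjusted p of 0.05. The solid line is the median of all tested genes (-0.01) and the dashed line the median of 11 pan-leukocyte genes (1.09), drawn without their spread.

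Of the NK receptor and cytotoxic genes 0 of 7 passed, against 22.4% of all genes tested called higher and 24.4% called lower. The median of the 7 log2 fold changes was -0.02. Gzma, a granzyme of NK and cytotoxic T cells, was at 95.6 and 90.4 in KO and at 59.1 and 74.4 in WT (0.48, SE 0.21, adjusted p = 0.136). Nkg7, a granule membrane protein, was at 94.6 and 79.2 in KO and at 64.2 and 72.6 in WT (adjusted p = 0.248). Both KO values were above both WT values in these genes. Gzmb, the granzyme that triggers apoptosis, was on the other side, at 19.7 and 22.3 in KO and at 24.5 and 36.3 in WT (-0.49, SE 0.34, adjusted p = 0.289). Prf1, which encodes perforin, was at 30 and 30.1 in KO and at 24.5 and 31.6 in WT.

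None of the NK receptors passed. Ncr1, the activating receptor NKp46, was at 66.5 and 24.5 in KO and at 42.8 and 50.2 in WT, and its KO libraries lay on either side of both WT libraries. Its log2 fold change was 0.51 without KO replicate 2 and -0.19 with all libraries, and neither passed. Klrb1c, the NK1.1 antigen in strains that carry it, was at 49.7 and 52.4 in KO and at 53 and 67.9 in WT. Both its KO values were thus below both WT values (adjusted p = 0.473). Klrd1, which encodes CD94, was at 56.2 and 42.4 in KO and at 52 and 47.5 in WT (95% interval -0.72 to 0.67).

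Of the 11 B cell members 10 were tested and Fcer2a was the gene that rose. Fcer2a (chromosome 8, 3681737 to 3694175) encodes CD23, a low-affinity receptor for immunoglobulin E. It was at 30.9 and 27.9 in KO and at 9.17 and 8.37 in WT, with a log2 fold change of 1.64 (SE 0.32, adjusted p = 0.0176). DESeq2 on recovered reads gave an adjusted p of 0.0586, so the call depends on the tool, and the counts were 33 and 25 reads in KO and 9 and 9 in WT. The defining receptor genes stood elsewhere. Cd79a, a signalling chain of the B cell receptor, was at 93.7 and 84.8 in KO and at 55 and 124 in WT. Cd79b, its partner, was at 109.6 and 89.3 in KO and at 66.2 and 112 in WT. Ms4a1, which encodes CD20, was at 80.6 and 58 in KO and at 35.7 and 77.2 in WT, and Cd22, an inhibitory coreceptor, at 76.8 and 70.3 in KO and at 37.7 and 70.7 in WT.

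In these 4 B cell receptor and surface genes WT replicate 1 was the lowest library and the groups overlapped. The 7 genes of that subset summed to 437 and 372 in KO and to 255 and 463 in WT, so the WT libraries differed 1.82-fold between themselves. Without WT replicate 1 the log2 fold change changed sign in Cd79a (-0.47), Cd79b (-0.17) and Ms4a1 (-0.17), and none passed with or without that library. Blk, a kinase of the B cell receptor, was at 32.8 and 29 in KO and at 36.7 and 54.9 in WT, and Tnfrsf13c, the receptor for the B cell survival factor BAFF, at 12.2 and 12.3 in KO and at 14.3 and 16.7 in WT. Both had KO values below WT values, with adjusted p-values of 0.229 and 0.484.

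The B cell and plasma cell regulators had no call. Pou2af1, a coactivator of immunoglobulin genes, was at 57.2 and 40.2 in KO and at 71.3 and 66.1 in WT (-0.51, SE 0.27, adjusted p = 0.186). Mzb1, a chaperone of antibody-secreting cells, was at 14.1 and 15.6 in KO and at 33.6 and 19.5 in WT (-0.75, SE 0.39, adjusted p = 0.184). Mzb1 exons overlap those annotated as SPATA24, not analysed here, over 695 of 1215 bases on the same strand. Each KO value was under each WT value in Pou2af1 and Mzb1. Spib, a transcription factor of B cells and plasmacytoid dendritic cells, was at 41.2 and 43.5 in KO and at 31.6 and 52.1 in WT. Pax5, which commits cells to the B lineage, was at 11.2 and 5.58 in KO and at 2.04 and 11.2 in WT, too low to be tested.

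Markers of lymph node stroma and follicles were read beside these genes, since a fat pad can carry lymphoid tissue. Of 8 markers found, 6 were tested, and Cr2, Cxcl13 and Ccl19 were lower in KO and 0 higher (24.4% and 22.4% of all genes). Ccl19, a chemokine of T cell zones, was at 12.2 and 19 in KO and at 74.4 and 65.1 in WT, and Cxcl13, which draws B cells into follicles, at 60.9 and 43.5 in KO and at 101 and 101 in WT. Glycam1, a lymph node venule ligand, was at 0 in all 4 libraries, and the 8 markers together summed to 3237 and 3050 in KO and to 3029 and 3348 in WT. Their part in the B and T cell values was not tested.

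The members were also set against the summed level of other leukocyte genes. The pan-leukocyte list holds genes common to blood-derived cells, such as Ptprc, which encodes CD45. Cd52, which the epididymis is also known to express, was left out of its sum after its values were seen, at 538 and 616 in KO and at 36248 and 45066 in WT. With Cd52 the 12 genes summed to 22410 and 21516 in KO and to 46568 and 55743 in WT. The ratios below therefore depend on leaving it out. The other 11 genes all rose, their median log2 fold change being 1.09, and they summed to 21873 and 20900.5 in KO and to 10320 and 10677 in WT. For each 1000 of these counts the 34 members held 113 and 114 counts in KO and 162 and 188 in WT.

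On this scale the KO libraries both lay below the WT libraries in 25 of the 33 members and above them in 6, against 84.8% and 5.25% of all genes tested. The 6 above were the members already called higher, Foxp3, Ctla4, Fcer2a, Cd247, Il7r and Cd2. The pan-leukocyte sum was itself 2.04-fold higher in KO, and these members had the greatest rises. Their place above thus restates the same values and is no separate support. Foxp3 was at 3.77 and 5.39 per 1000 in KO and at 0.987 and 1.66 in WT, and Ctla4 at 1.58 and 4.06 in KO and at 1.09 and 0.784 in WT. Cd2 barely separated, at 9.64 and 9.18 in KO and at 7.9 and 9.06 in WT. The NK and cytotoxic subset summed to 18.8 and 16.3 per 1000 in KO and to 31 and 35.6 in WT, and the coreceptors to 6.77 and 7.74 in KO and to 15.5 and 17.8 in WT. Macrophage markers were called higher by limma in 13 of 13, against 22.4% of all genes tested, and dendritic cell markers in 5 of 8. Mast cell, eosinophil and neutrophil markers were called higher in 2 of 7, and each list had 0 lower, against 24.4%. How the mix of leukocytes moved these ratios was not tested.

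**Figure D3:**
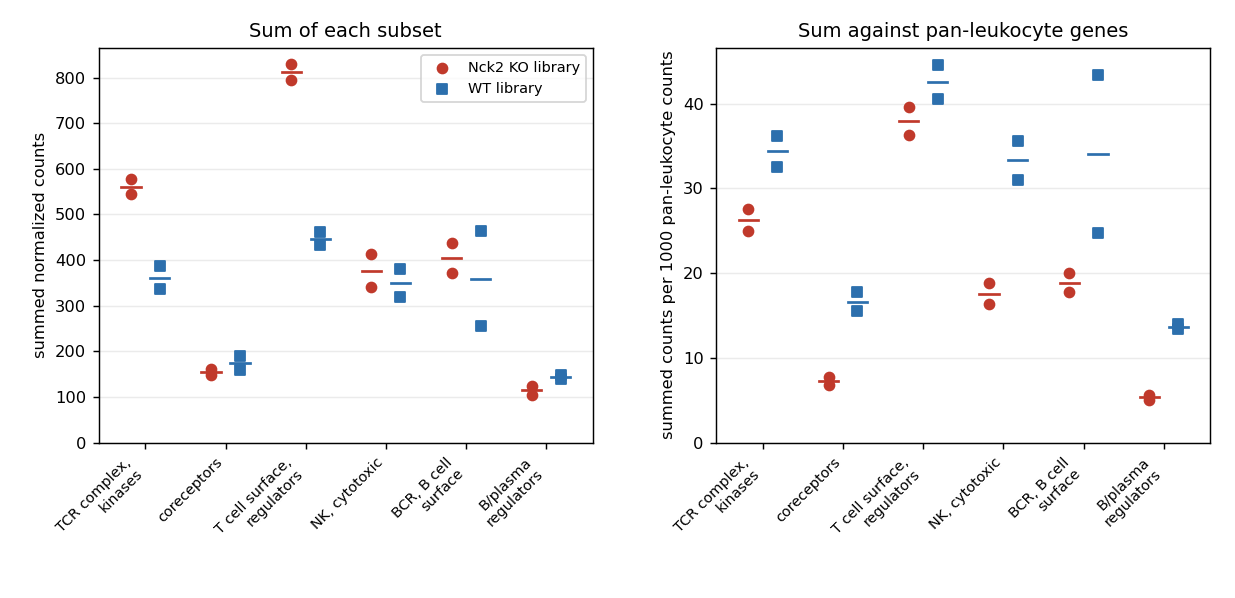
Summed level of each member subset in each library, as normalized counts (left) and per 1000 normalized counts of 11 pan-leukocyte genes (right), with Nck2 KO libraries as red circles left of WT libraries as blue squares and the group mean as a bar. The T cell receptor and T cell surface subsets are higher in KO on the left (545 and 577 against 336 and 386 for the receptor complex). All 6 subsets are lower in KO on the right, a scale on which 84.8% of all tested genes had both KO libraries below both WT libraries.

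Other genes of the same pathways were taken from lists chosen by function. Of 26 further T cell receptor signalling genes tested, 11 rose and 4 fell (22.4% and 24.4% of all genes), with a median log2 fold change of 0.75. Lcp2, the adaptor SLP-76 that myeloid cells also use, was at 699.9 and 613 in KO and at 244 and 275 in WT (1.33, SE 0.13, adjusted p = 0.0028). The genes that fell were Satb1, Lef1, Ptpn22 and Skap1. Satb1, a chromatin organiser, was at 280.2 and 291 in KO and at 1939 and 2137 in WT (-2.83, SE 0.09, adjusted p = 0.00055), and Lef1, a relative of Tcf7, at 17.8 and 22.3 in KO and at 154 and 174 in WT (-2.97, SE 0.24, adjusted p = 0.0020). Ptpn22, a phosphatase that restrains receptor signalling, fell by 1.57 on the log2 scale (SE 0.11), at 219 and 195 in KO and at 634 and 599 in WT. These genes are also expressed outside lymphocytes. The same comparison holds the difference in male tract markers given above, and its part in these values was not tested.

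Genes of the list that are closer to T cells were picked after their values were seen. Cd6, a T cell adhesion receptor, was at 56.2 and 61.4 in KO and at 17.3 and 22.3 in WT (1.53, SE 0.28, adjusted p = 0.0141). Icos, a costimulator, was at 64.7 and 62.5 in KO and at 28.5 and 33.5 in WT (1.016, SE 0.24, adjusted p = 0.0281). Cd27, another costimulator, was at 47.8 and 60.3 in KO and at 22.4 and 24.2 in WT (1.17, SE 0.27, adjusted p = 0.0271). Bcl11b, a transcription factor of the T lineage, did not pass, at 50.6 and 58 in KO and at 50.9 and 50.2 in WT.

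Of 20 further NK and cytotoxic genes tested 3 rose and 0 fell (22.4% and 24.4% of all genes), with a median of 0.03. Klrg1, an inhibitory receptor found on NK cells, effector T cells, type 2 innate lymphoid cells and fat regulatory T cells, was at 109.6 and 163 in KO and at 17.3 and 14.9 in WT. Both KO libraries were far above WT, and its log2 fold change of 2.98 (SE 0.30, adjusted p = 0.0033) was greater than that of any member. Serpinb9, an inhibitor of granzyme B, rose by 0.66 on the log2 scale (SE 0.11) and Cd226, an activating receptor, by 0.87 (SE 0.24).

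Of 26 further B cell and plasma cell genes tested 12 rose and 5 fell (22.4% and 24.4% of all genes), with a median of 0.66. The smallest p-values among those that rose belonged to Ebf1, Cd83, Cd37 and Btk. Ebf1, a factor of both B cells and adipocytes, was at 6775 and 7066 in KO and at 2935 and 2326 in WT (1.405, SE 0.13). Cd83, Cd37 and Btk, which myeloid cells also express, rose by 1.28, 1.20 and 1.52. The genes that fell were Cr2, Bcl11a, Prdm1, Blnk and Cd72. Cr2, the complement receptor of mature B cells and follicular dendritic cells, was at 16.9 and 15.6 in KO and at 71.3 and 52.1 in WT (-1.85, SE 0.30, adjusted p = 0.0103).

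Of 10 innate lymphoid and gamma-delta T cell genes tested 2 rose and 4 fell (22.4% and 24.4% of all genes), with a median of -0.36. Il1rl1, the receptor for interleukin-33 carried by type 2 innate lymphoid cells, mast cells and fat regulatory T cells, was at 637 and 743 in KO and at 231 and 234 in WT (1.56, SE 0.12, adjusted p = 0.0018). Il2ra, the interleukin-2 receptor alpha chain, was at 246 and 315 in KO and at 124 and 127 in WT (1.14, SE 0.18, adjusted p = 0.0092). Among the genes that fell were Gata3 and Id2. Gata3, a factor of T cells and innate lymphoid cells that epithelia also express, was at 104 and 119 in KO and at 5807 and 9551 in WT. Il13 and Il5, type 2 cytokines singled out after their values were seen, were under the mean of 10. Il13 had 8 and 13 reads in KO and 0 reads in both WT libraries. Its KO level was 7.33-fold a floor of 3 reads over the WT group, a ratio that leaves out the error of the KO reads. Il5 had 9 and 7 reads in KO and 1 read in each WT library.

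**Figure D4:**
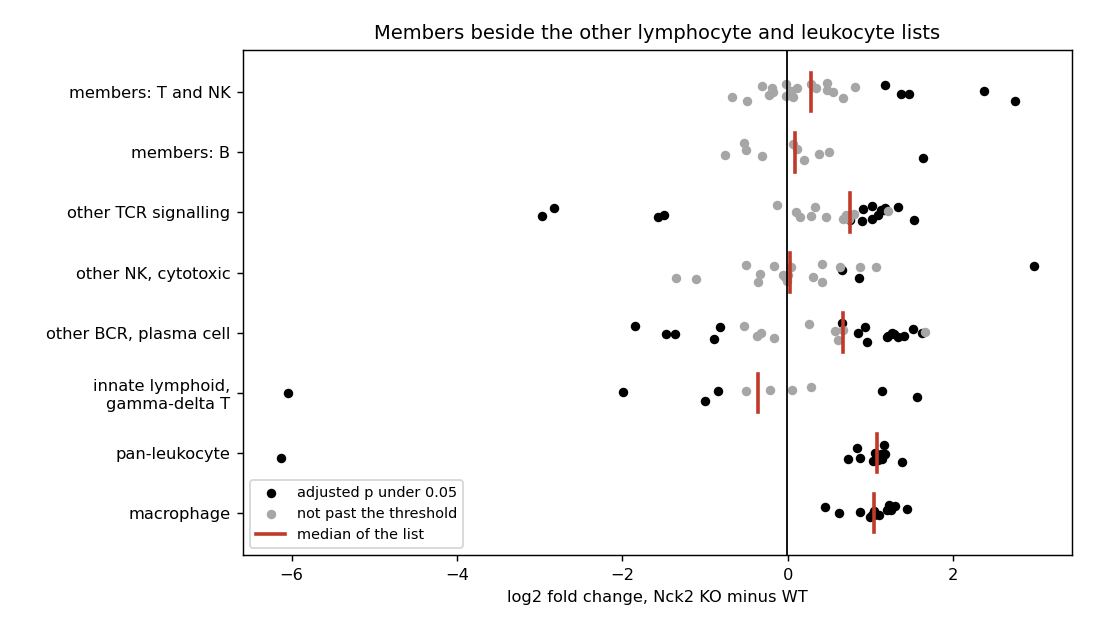
Log2 fold change (Nck2 KO minus WT) of every tested gene in the member lists, 4 further lymphocyte lists and 2 leukocyte lists, with black points past an adjusted p of 0.05, a red bar at the median of each list and a line at the median of all genes. The T and NK members (median 0.28) and B members (0.08) lie left of the pan-leukocyte and macrophage lists (1.07 and 1.04), and Klrg1 is the rightmost point.

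Leaving out a library changed the calls more than the sizes. The log2 fold change of Foxp3 ran from 2.38 to 3.12 over the 4 fits, that of Il7r from 1.29 to 1.44 and that of Cd2 from 1.05 to 1.29. Ctla4 had the widest range, from 1.74 to 3.004. The number of members called higher was 5 without KO replicate 1, 4 without KO replicate 2, and 0 without either WT replicate. With 0 calls, the unadjusted p was under 0.05 for 5 members without WT replicate 1 and for 7 without WT replicate 2. Such fits have a lone library in a group, assumed to vary like the other group, and fewer degrees of freedom. Fcer2a passed in none of the 4 fits, with adjusted p-values of 0.0537 to 0.0779.

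**Figure D5:**
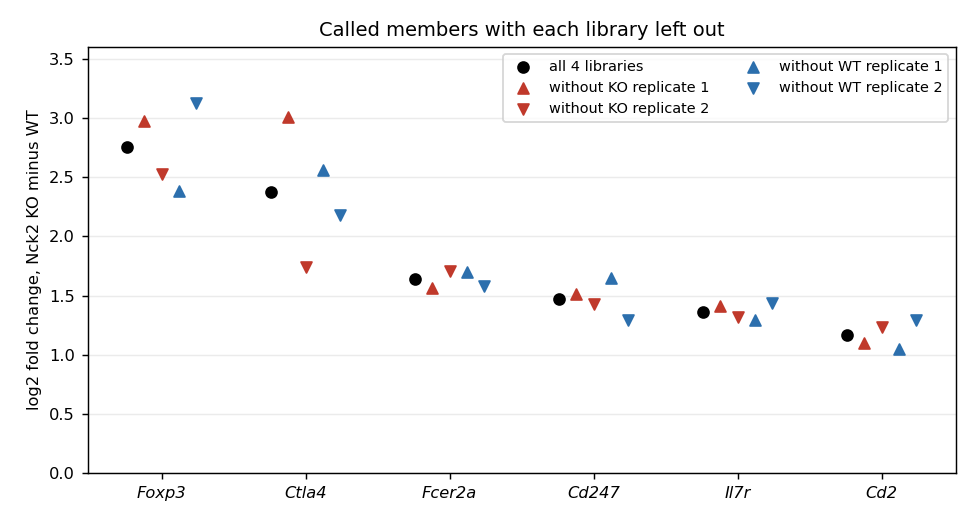
Log2 fold change (Nck2 KO minus WT) of the 6 called members with all 4 libraries (black circles) and with each library left out (red triangles for KO, blue for WT). All values stay above 1, with the widest range in Ctla4 (1.74 to 3.004).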

How the data were processed

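RNA of epididymal white adipose tissue was sequenced in 2 Nck2 KO and 2 WT libraries, extracted with Trizol and RNeasy columns and made into poly(A) libraries, per the labels' protocols. The submitters' processing notes name CASAVA 1.8, TopHat2 2.0.10, HTSeq 0.5.3, DESeq2 1.4.5 and the build GRCm38, with no role or order. The deposited signal values are read counts that the authors divided by a size factor of each library. The authors' deposited table adds log2 fold changes with their errors, a test score, and p-values. Whole reads were recovered from the deposited normalized counts, and 100% of values were whole within 0.01.

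The 16710 genes averaging at least 10 normalized counts entered limma 3.58.1 (R 4.3.3) on log2(normalized count + 1), with a trend and Benjamini-Hochberg adjustment over all of them. Recovered reads in edgeR 4.0.16 and in DESeq2 1.42.0, other pseudocounts, filters and scalings, a replicate block and each library left out were alternatives. The fits were tested on simulated data. The members and lists were chosen with earlier results of these data known. All 34 members are named, and from each pathway list up to 4 called genes by smallest p; other genes of those lists were named after their values were seen. Coordinates are from GENCODE M21 (GRCm38), matched by Ensembl ID for all 34 members, and per-kilobase levels use the union of its exons. Of the list genes 4 were not analysed here. The exact intervals of reads cover counting error only, and the intervals of log2 fold changes come from limma and rest on the spread between libraries. Some genes of the lists are not reported here.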

Additional observations from a re-analysis of the deposited data

How the results depend on the processing

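Of the 33 tested members, 0 were called lower under any alternative run, and 6 were called higher under pseudocounts of 0.5 and 5, no filter, upper-quartile or TMM scaling, robust moderation and edgeR. DESeq2 called 5 (Fcer2a adjusted p = 0.0586), and a mean of 50 or more left 17 members with 4 called, since Ctla4 and Fcer2a then go untested. The scalings moved the median of all genes by less than 0.1, from -0.01 to 0.01 and -0.02. Same-numbered libraries did not deviate together (r = -0.009 over 16710 genes), so the replicate numbers are not taken as pairs. With the replicate block 4 members were called, Ctla4 and Fcer2a having adjusted p-values of 0.05001 and 0.0510, and 2737 genes were higher and 3339 lower, with 20 and 10 of the other pathway genes. Leaving out 1 library gave 524 to 2846 genes higher (3735 with all 4), 1061 to 3434 lower (4074), 0 to 5 members higher (6), and 2 to 18 other pathway genes higher (28) and 3 to 13 lower (13). These fits have fewer samples. The log2 ratio of summed levels of the T cell receptor complex was 0.53 per kilobase and 0.64 without length. Dividing by length gives less weight to Cd247, which rose most in that subset and has its longest exon total (5329 bases).

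No call reversed. The log2 fold changes of these uncalled members changed sign: Zap70 was -0.012 with edgeR and -0.0013 with DESeq2, Cd79a -0.024 and -0.014, and Spib -0.0055 with edgeR. With 1 library left out they ran from -0.24 to 0.20 for Lck, -0.26 to 0.35 for Zap70, -0.38 to 0.036 for Cd4, -0.39 to 0.51 for Cd8b1, -0.89 to 0.51 for Ncr1, -0.22 to 0.18 for Klrd1, -0.072 to 0.29 for Prf1, -0.47 to 0.69 for Cd79a, -0.17 to 0.57 for Cd79b, -0.17 to 0.92 for Ms4a1 and -0.29 to 0.41 for Spib. The standard errors of members ran from 0.15 to 0.53, and 25 of 33 intervals included 0.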

Other observations

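Further genes known from regulatory T cells were read after the values of Foxp3 and Ctla4 were seen, so they are a description with no test of the list. Of 13 with a mean of 10 or more, 9 had both KO libraries above both WT libraries, 3 below and 1 overlapping, against 38.9% and 40.6% of all genes tested. The 9 include Klrg1, Il1rl1 and Il2ra, already given above as higher in KO, so their direction was known beforehand. Ccr4, a chemokine receptor, was at 13.1 and 27.9 normalized counts in KO and at 2.04 and 1.86 in WT, and Batf, a transcription factor of effector regulatory T cells, at 65.6 and 64.7 in KO and at 24.5 and 22.3 in WT. The genes with lower KO values were Ikzf2, Ikzf4 and Entpd1. Ikzf2, which encodes Helios, was at 239 and 283 in KO and at 702 and 644 in WT. Several of these genes, such as Nrp1 and Lrrc32, are also expressed by vessels and other cells.

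The constant regions of the antigen receptors were read in the same way. Trac, the alpha chain, was at 39.4 and 44.6 in KO and at 22.4 and 19.5 in WT, and per 1000 pan-leukocyte counts its groups overlapped. Immunoglobulin genes differed more between replicates than between groups in several cases. Ighg2b was at 555 and 1.12 in KO and at 626 and 156 in WT, and Ighg3 at 10.3 and 3.35 in KO and at 399 and 3.72 in WT. Ighm was at 15221 and 16186 in KO and at 9625 and 2546 in WT, with a limma adjusted p of 0.102.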
